A study of Homo sapiens with 14 samples.

Results

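Antisense long noncoding genes are transcribed from the strand opposite a named partner gene, and their promoters were examined here among the transcription start site windows of a Pol II ChIP-seq study in HCT116, a human colorectal carcinoma cell line with wild-type p53. The windows were chosen by name: every row whose gene symbol ended in -AS with or without a number, apart from IER3-AS1 and FAS-AS1. That rule found 1158 of the 28159 windows of 1000 bases, and no measured value entered it. RefSeq held an entry for 1081 of them, of which 1069 were typed as lncRNA and 12 as antisense RNA. The partner is the gene named before -AS, and it had a window of its own for all but 20 members; these came to 1045 distinct partners because 177 members shared a partner with another member.

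The study asked how a peptide that blocks the binding of p53 to the Mediator complex alters Pol II at start sites after p53 is activated. Wild-type HCT116 cells were electroporated with a bivalent stapled peptide at 10 µM or without it, and then kept for 3 h in medium with 0.1% DMSO or with 10 µM Nutlin3a, a small molecule that frees p53 from MDM2. Wells that had received peptide got a further 200 nM in the medium. Chromatin was precipitated with the 3E8 antibody, which recognises Pol II phosphorylated on serine 5 of its C-terminal repeats, a form found at start sites. Without peptide, each treatment was represented by 2 ChIP libraries, and with peptide by 1 (labelled replicate 2). Another 8 libraries of unprecipitated chromatin served as inputs, 2 per condition. The labels do not say whether replicates were separate cultures, so a p-value here reflects the spread among libraries, which may be technical.

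Antisense transcripts often start from the same CpG-rich promoter as a coding gene, where Pol II can fire in both directions, or from within or beyond the partner and run through it on the opposite strand. ChIP reads carry no information on the direction of the polymerase, so a window that covers start sites on both strands counts the polymerase of both. Some antisense RNAs act on the partner's locus or messenger RNA, and others are known mainly as by-products of promoter activity.

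Promoter sequences are shown for 5 members that the results below turn on: INKA2-AS1 has the highest Nutlin3a fold change of the 12 members described for that agent, PRKG1-AS1, DNAJC9-AS1 and UBAC2-AS1 are among those farthest above input, and RPS6KA2-AS1 is among those farthest below it. Sequences are from RefSeq on GRCh38.p14, read 5′ to 3′ on the strand of the antisense gene and written in lower case, with each CG dinucleotide in capitals. They span chr1:111739591-111739890 (plus strand) for INKA2-AS1, chr10:52314079-52314280 (minus) for PRKG1-AS1, chr10:73247256-73247416 (plus) for DNAJC9-AS1, chr13:99200706-99200853 (minus) for UBAC2-AS1 and chr6:166903448-166903747 (plus) for RPS6KA2-AS1. The stretches of 3 members stop where a neighbouring gene begins: DKK1 for PRKG1-AS1, and the partner for DNAJC9-AS1 and UBAC2-AS1. The INKA2-AS1 stretch lies inside its partner INKA2.
INKA2-AS1: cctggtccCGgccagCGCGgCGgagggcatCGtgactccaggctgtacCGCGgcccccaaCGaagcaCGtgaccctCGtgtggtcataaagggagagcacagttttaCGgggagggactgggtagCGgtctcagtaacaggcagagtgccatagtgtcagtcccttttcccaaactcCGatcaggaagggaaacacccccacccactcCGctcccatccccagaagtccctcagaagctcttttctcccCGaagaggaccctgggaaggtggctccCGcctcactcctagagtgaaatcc
PRKG1-AS1: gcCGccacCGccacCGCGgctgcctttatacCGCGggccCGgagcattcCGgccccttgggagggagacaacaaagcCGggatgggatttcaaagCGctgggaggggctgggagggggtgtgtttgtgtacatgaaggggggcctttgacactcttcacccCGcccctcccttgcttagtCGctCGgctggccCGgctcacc
DNAJC9-AS1: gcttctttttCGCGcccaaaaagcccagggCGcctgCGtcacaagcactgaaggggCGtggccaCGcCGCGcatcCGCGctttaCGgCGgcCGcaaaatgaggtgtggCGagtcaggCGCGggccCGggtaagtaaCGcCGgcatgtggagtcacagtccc
UBAC2-AS1: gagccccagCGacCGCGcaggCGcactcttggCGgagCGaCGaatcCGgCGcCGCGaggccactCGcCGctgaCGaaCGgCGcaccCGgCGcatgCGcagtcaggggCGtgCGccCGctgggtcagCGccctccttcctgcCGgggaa
RPS6KA2-AS1: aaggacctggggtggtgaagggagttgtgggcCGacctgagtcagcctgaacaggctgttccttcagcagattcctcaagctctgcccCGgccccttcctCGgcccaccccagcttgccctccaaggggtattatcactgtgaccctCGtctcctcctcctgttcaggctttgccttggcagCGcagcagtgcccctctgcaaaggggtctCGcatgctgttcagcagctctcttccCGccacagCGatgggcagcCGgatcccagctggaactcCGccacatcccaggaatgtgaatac
The UBAC2-AS1 stretch of 148 bases holds 24 CG dinucleotides, and DNAJC9-AS1 holds 19 in 161 bases. PRKG1-AS1 has 14 in 202 bases, INKA2-AS1 has 16 in 300, and RPS6KA2-AS1 has 10 in 300. The letters GGGCGG, the core of the GC box, occur on either strand in the PRKG1-AS1 stretch alone of the 5, and so does TATAAA.

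Where an antisense window lies decides which other start sites it counts. For 360 members the window overlapped that of the partner by at least 1 base, for 107 it overlapped the window of another gene only, and for 691 it overlapped no other window. Overlap was thus found for 40.3% of members and for 22.0% of all windows. Of 699 pairs with both strands in RefSeq, 698 lay on opposite strands: 194 were head to head, with the starts pointing away from each other, and 504 faced each other or ran through each other. Windows began under 500 bases apart in 272 pairs, from there to under 1000 in 88, to under 5000 in 115, to under 100000 in 397, and farther apart in 265. The POTEH-AS1 window was on another chromosome than that of its partner. The windows themselves were not turned with the gene. In members with a single RefSeq start, 352 of 357 plus-strand windows held 300 bases before the start and 699 after it, and 354 of 355 minus-strand windows held 700 before and 299 after.

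The ChIP libraries held 1290223 to 2240951 counts in all windows, the fewest in Nutlin3a replicate 1, and the inputs 161719 to 359276. Members took 3.08% to 3.22% of the counts in each ChIP library and 2.99% to 3.13% in each input. Colon epithelium markers had a median of 49.4 CPM over 9 genes, with CDH1, CDX1, CDX2, VIL1 and LGALS4 below input, against medians of 6.09, 8.44 and 9.82 CPM for blood, mesenchyme and endothelium markers. CPM is a count per 1000000 counts in the windows after TMM scaling, done separately for ChIP and input. Reads outside the windows were not counted, so a value below input is a lower share of window counts. The median ratio of ChIP to input over all windows was 0.695, so below input does not mean below the typical window.

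Antisense windows held fewer ChIP reads than the typical window, and also fewer input reads, and their level followed what else lay in them. The median member had 9.49 CPM against 15.7 CPM over all windows and 24.9 CPM over the partner windows. The median inputs were 21.6, 28.5 and 34.9 CPM in that order. Members that overlapped another gene only had a median of 47.5 CPM and those that overlapped the partner 35.6 CPM, while members overlapping no other window had 5.68 CPM. Input followed the same order, at 44.3, 38.8 and 14.3 CPM. Ratios of ChIP to input were 1.06, 0.937 and 0.499 in that order, against 0.622 for all members and 0.695 for all windows. All windows overlapping no other had a median of 10.5 CPM and a ratio of 0.617. Head-to-head pairs with overlapping windows had a median member level of 43.5 CPM, and overlapping pairs that faced each other had 31.0 CPM. By distance, the median was 43.4 CPM under 500 bases and 14.6, 9.83, 7.92 and 4.25 CPM in the successive bins. These medians are descriptions, since overlapping windows share reads.

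**Figure D1:**
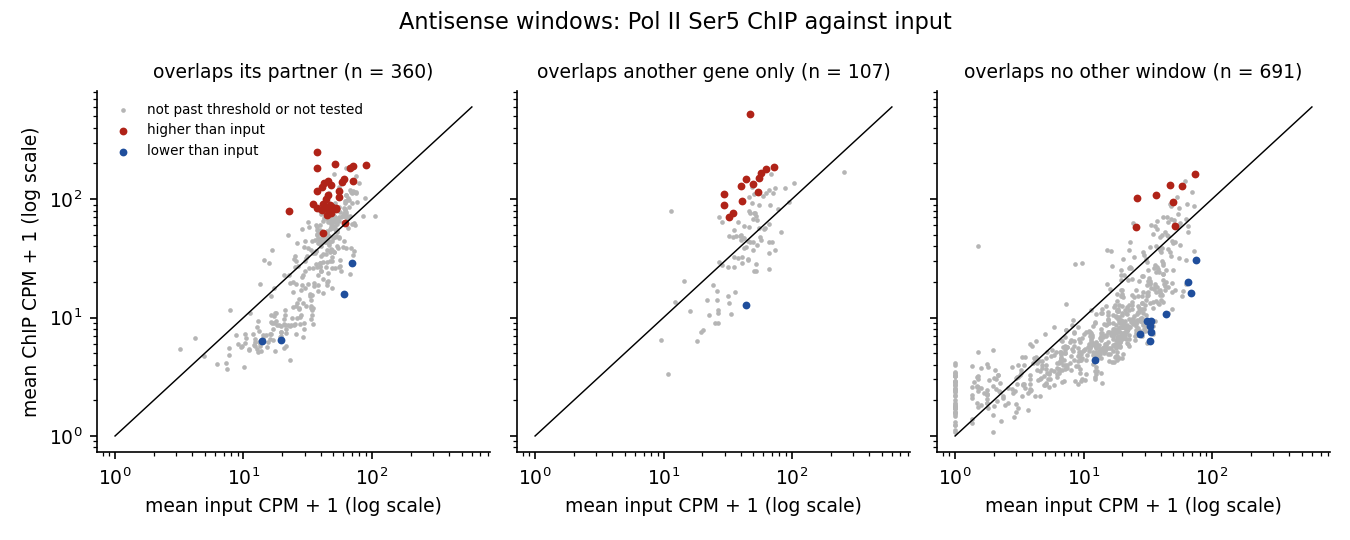
Mean ChIP CPM over 6 libraries (vertical) against mean input CPM over 8 libraries (horizontal), both plus 1 on log scales, 1 point per antisense window, split by what the window overlaps. The line marks equal values, red and blue points passed the edgeR test of DMSO ChIP against DMSO input (54 higher, 16 lower), and most of the 691 windows overlapping no other lie under the line.

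Against input, DMSO ChIP counts of 54 members were higher and those of 16 were lower at an adjusted p under 0.05 (edgeR quasi-likelihood test, 2 libraries against 2). Among all 20489 windows tested, 8.55% were higher and 2.62% lower, and the shares among the 772 members tested were 6.99% and 2.07%. By place, 32 of 321 members overlapping the partner were higher (9.97%) and 14 of 103 overlapping another gene only (13.6%). Of the 348 overlapping nothing else, 8 were higher and 11 lower. The shares of these 348 were 2.30% and 3.16%, against 6.95% higher and 2.81% lower of all windows overlapping no other. All windows that do overlap another were therefore above 8.55% higher, so 8.55% is not the like share for overlapping members. For 23 of the 32, the partner window was higher as well, and for 12 of the 14 the other gene's window was. These counts depend on the fit. DESeq2 called 25 members higher and 0 lower (3.24% and 0%), against 4.28% and 0.498% of all windows. With all 8 inputs 68 and 66 of 513 members were called (13.3% and 12.9%), against 13.6% and 13.9% of all windows, with 41 of the 54 and 12 of the 16 among them.

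Several of the members farthest above input covered the start of another gene. PRKG1-AS1 had 519 and 587 CPM in the DMSO libraries, 511 with peptide, 494 and 437 in the Nutlin3a libraries and 573 in Nutlin3a with peptide, against 64.9 and 46.3 CPM in the DMSO inputs. It was the highest member in mean level (520 CPM), and every ChIP value was far above every input value. The log2 fold change over input was 3.59 ± 0.37 (SE; edgeR adjusted p = 0.0121), and 3.49 ± 0.28 with all 8 inputs. Its window overlaps that of DKK1, a secreted inhibitor of Wnt signalling, whose own window had 502 to 690 CPM. The partner PRKG1, a cGMP-dependent kinase, starts 1323240 bases away and had 3.11 to 14.9 CPM.

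DNAJC9-AS1 had 216 and 213 CPM under DMSO and 178 with peptide, and 167, 150 and 170 CPM in the Nutlin3a libraries without and with peptide. Both DMSO values exceeded the others, and all 6 were above the DMSO inputs of 19.1 and 46.3 CPM (log2 fold change 3.04 ± 0.44, adjusted p = 0.0127; 2.51 ± 0.29 with all 8 inputs). The start of DNAJC9, a histone chaperone of the J-domain family, lies 111 bases away head to head, and its window had 164 to 242 CPM. UBAC2-AS1 had 167, 157, 149, 115, 114 and 151 CPM, in the order DMSO replicates 1 and 2, DMSO with peptide, Nutlin3a replicates 1 and 2 and Nutlin3a with peptide, which is kept below. Both Nutlin3a libraries without peptide were lowest, and the log2 fold change over input was 2.93 ± 0.74 (adjusted p = 0.0419). It rested on DMSO inputs of 0 and 55.5 CPM, and with all 8 inputs it was 1.84 ± 0.41. UBAC2 starts 98 bases away head to head.

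Among members past the threshold ZNF337-AS1 had the highest log2 fold change over input, 3.65 ± 0.70 (adjusted p = 0.0217), on 0 and 32.4 CPM in the DMSO inputs. The mean over all 8 inputs was 48.9 CPM, and with all 8 in the fit the log2 fold change was 1.56 ± 0.42. Its ChIP levels of 119 to 155 CPM nearly repeated the 121 to 157 CPM of NANP, a phosphatase of sialic acid synthesis, whose window it overlaps. Likewise CARNMT1-AS1 lay on C9orf40, THUMPD3-AS1 on SETD5, ZNF451-AS1 on BAG2 and PXN-AS1 on RPLP0, a ribosomal stalk protein. The named partners of these 4 members lie 33570 to 82026 bases away. Among members whose window overlaps that of the partner, PCBP1-AS1 had a log2 fold change of 3.02, UBE2D3-AS1 2.67 and ENO1-AS1, opposite the glycolytic enzyme enolase, 2.54. With all 8 inputs these were 1.75, 1.02 and 1.97, and UBE2D3-AS1 no longer passed (adjusted p = 0.0757). Its DMSO inputs were 3.82 and 27.8 CPM, and the mean over 8 was 36.5 CPM. EZR-AS1, which faces the membrane linker ezrin, was second in level at 250 CPM, followed by ENO1-AS1 at 196, AZIN1-AS1 at 193, THAP7-AS1 at 190 and PXN-AS1 at 187.

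Members higher than input with no other window over them were RPARP-AS1, HIF1A-AS3, USP3-AS1, PAX8-AS1, CATIP-AS1, HM13-AS1, LIF-AS1 and MID1IP1-AS1, named because they were the 8 such members and not by the naming rule. HM13-AS1 had 131, 125, 133, 113, 129 and 145 CPM against 26.7 and 27.8 CPM in the DMSO inputs. All 6 libraries lay within a narrow range, and the log2 fold change over input was 2.52 ± 0.39 (adjusted p = 0.0143). The window of HM13, a signal peptide peptidase 58822 bases away, had 52.6 to 67.5 CPM, below each value of the antisense window. PAX8-AS1 had 149, 138, 146, 103, 119 and 111 CPM, while PAX8, a transcription factor of thyroid and kidney, had 7.71 to 12.0 CPM. The Nutlin3a libraries of PAX8-AS1 were all below the DMSO libraries, with a log2 fold change of -0.37 ± 0.22 that did not pass the test (unadjusted p = 0.110). MID1IP1-AS1 had 70.1 to 121 CPM against 11.4 to 32.2 CPM for MID1IP1. CATIP-AS1 rested on low DMSO inputs of 3.82 and 18.5 CPM where the mean of 8 inputs was 50.9 CPM, and with all 8 its log2 fold change was 0.20 ± 0.51. With all 8 inputs HM13-AS1, LIF-AS1, MID1IP1-AS1, PAX8-AS1 and RPARP-AS1 stayed past the threshold, the same 5 as under DESeq2. With the replicate block HM13-AS1 alone stayed, and 0 of the 8 stayed without DMSO replicate 1, without DMSO replicate 2 or among windows that reached a mean count of 50.

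At the other end, THSD4-AS1, IGFL2-AS1, RPS6KA2-AS1 and CACNA2D3-AS1 had the lowest log2 fold changes over input, from -3.84 to -3.36, and none overlapped another window. RPS6KA2-AS1 had 3.84, 6.16, 7.26, 4.57, 7.17 and 10.7 CPM, against 99.3 and 37.0 CPM in the DMSO inputs. Every ChIP library was below both inputs (log2 fold change -3.47 ± 0.70, adjusted p = 0.0250). THSD4-AS1 had 1.44 and 4.62 CPM under DMSO, 7.26 with peptide, 19.1 and 9.56 CPM under Nutlin3a and 8.00 with both. Its Nutlin3a values were above its DMSO values without peptide, but the counts are few, and its mean count was under the minimum of 30 set for naming a change.

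Signal also followed the CG content of the promoter, in members as in all windows. A RefSeq promoter of 300 bases, from 250 before the start to 50 after it, was at hand for 806 members, and for 791 the start lay in the window. These held a median of 12 CG dinucleotides and 57.3% G and C, against 22 and 63.0% over all windows. Members overlapping the partner had a median of 26, those overlapping another gene only 27.5, and those overlapping nothing else 4. The 37 with a promoter among members higher than input had a median of 31. Median ChIP level was 3.34 CPM at 0 to 5 dinucleotides, 9.67 CPM at 6 to 14, 30.3 CPM at 15 to 29 and 49.2 CPM at 30 or more, and the ratio to input was 0.499 in the lowest bin and 1.18 in the highest. Over all windows the levels of the same bins were 3.68, 8.61, 39.5 and 50.7 CPM, with ratios of 0.451 and 1.08 in the end bins. In members overlapping no other window the levels of these end bins were 3.17 and 26.6 CPM and the ratios 0.506 and 0.693. Across these 467 promoters, Spearman's rho of CG count was 0.64 with ChIP CPM, 0.63 with input CPM and 0.03 with their ratio; across all 791 it was 0.73, 0.71 and 0.33. The points share libraries and depth, and base composition moves with both ChIP and input. The part of base composition in sequencing was not tested.

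**Figure D2:**
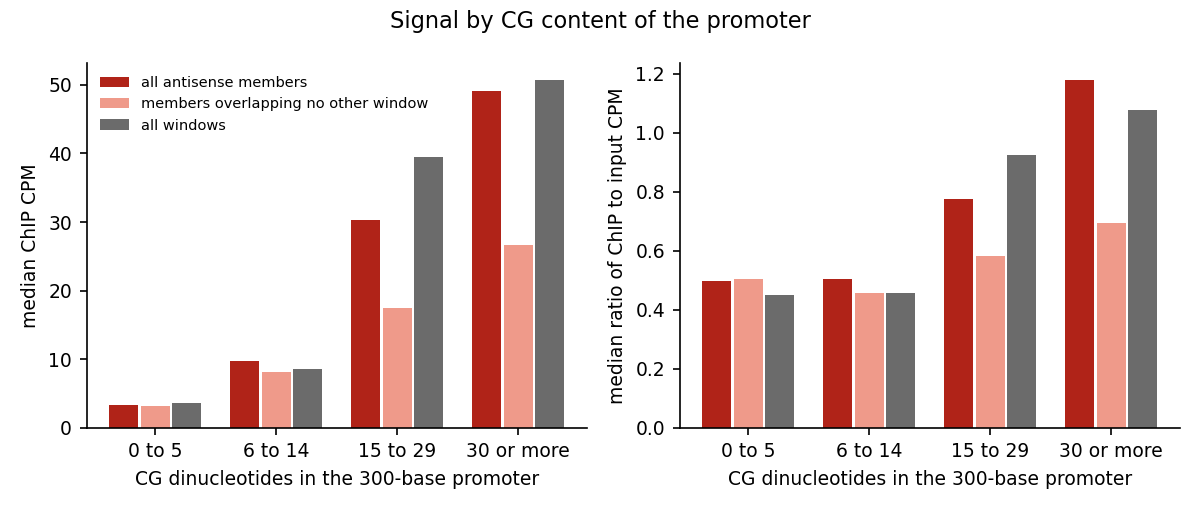
Median mean ChIP CPM (left) and median ratio of ChIP to input CPM (right) by the number of CG dinucleotides in the 300-base RefSeq promoter, for 791 members, the 467 of them overlapping no other window, and all windows with a promoter. Bars are taller at higher CG content in each set on the left, and in the highest bin members overlapping no other window reach 26.6 CPM against 49.2 CPM for all members.

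Core promoter letters differed with place as well. GGGCGG on either strand was in 39.3% of member promoters and 57.8% of all promoters of the same length, and in 62.3% of those overlapping the partner against 21.8% of those overlapping nothing else. TATAAA was in 9.86% of members and 9.35% of all, CCAAT in 32.7% and 36.0%. The single p53 decamer was found in 7.71% of members and 5.87% of all promoters, and the tandem p53 site in 0 members and in 3 promoters overall. A match describes letters in this window only, and the GGGCGG motif itself holds a CG.

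Nutlin3a gave no antisense window past the threshold. Of 1048 members with enough counts to test, 0 were higher and 0 lower at an adjusted p under 0.05, where 0.00772% of all 25901 windows were higher (TP53INP1 and MIR3189, neither a member) and 0% lower. At an unadjusted p under 0.05 the same edgeR test gave 15 higher and 14 lower members, 1.43% and 1.34%, against 1.27% and 1.05% of all windows. DESeq2 and limma-voom also called 0 members. Sensitivity was limited: the median standard error of a member's log2 fold change was 0.53, and 0.25 in the 357 members whose mean ChIP count reached 50. The median log2 fold change was 0.11 in members and 0.04 in all windows, but -0.15 and -0.14 in windows that reached this count. In members overlapping nothing else it was 0.43, with 0.68 in replicate 1 and 0.10 in replicate 2, and -0.07 in those that reached it. Their median level was 9.14 CPM in Nutlin3a replicate 1, the shallowest library, and 4.33 to 5.38 CPM in the other 5. Blood markers had a median of 10.7 CPM in that library and 2.57 to 5.38 CPM in the others. Mesenchyme markers had 10.7 CPM against 4.33 to 11.2 CPM and endothelium markers 11.05 CPM against 6.97 to 11.7 CPM, so that library was not the highest there; the part of its depth or background in the difference was not tested.

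INKA2-AS1 had the highest log2 fold change among the 6 members with the smallest p upward of those that reached a mean count of 30. It had 15.9 and 20.0 CPM under DMSO, 19.5 with peptide, 22.1 and 43.6 under Nutlin3a and 29.8 with both. All 3 Nutlin3a libraries were above all 3 DMSO libraries, though replicate 1 by little. The log2 fold change without peptide was 0.89 ± 0.38 (edgeR unadjusted p = 0.0329, adjusted p = 0.982). The window of INKA2, an inhibitor of the kinase PAK4 and a known p53 target, starts 445 bases away. Window positions and strands place the pair head to head, but the INKA2-AS1 promoter stretch lies inside the RefSeq INKA2 gene. The INKA2 window shares 555 bases with that of INKA2-AS1 and had 48.5, 33.9, 41.9, 54.1, 78.9 and 63.6 CPM, a log2 fold change of 0.70 ± 0.27 with the same adjusted p. The antisense window stood below its mean input of 47.8 CPM in all 6 libraries, and reads of INKA2 and INKA2-AS1 cannot be told apart where the windows overlap.

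TRAF3IP2-AS1 had the smallest p upward of the members that reached this count. It had 106, 82.7, 106, 146, 131 and 174 CPM, so the Nutlin3a libraries, with and without peptide, were above every DMSO library. The log2 fold change was 0.55 ± 0.23 (unadjusted p = 0.0253, adjusted p = 0.982), or 0.46 in replicate 1, 0.66 in replicate 2 and 0.71 with peptide. The window overlaps that of REV3L, the catalytic subunit of the translesion DNA polymerase zeta, which had 86.5, 69.9, 92.1, 136, 123 and 162 CPM and a log2 fold change of 0.72 ± 0.22 (unadjusted p = 0.0050). TRAF3IP2, the partner and an adaptor of interleukin-17 receptors, lies 122407 bases away and had 12.8 to 32.0 CPM. REV3L is described here because the TRAF3IP2-AS1 window covers its start.

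Next upward at this count were SRGAP2-AS1, HOMER3-AS1, APOA1-AS and RNASEH2B-AS1, with log2 fold changes of 0.68, 0.57, 0.67 and 0.65 and unadjusted p from 0.0590 to 0.118. RNASEH2B-AS1 had 17.8 and 16.4 CPM under DMSO but 37.3 and 17.3 CPM under Nutlin3a, so only replicate 1 differed. SRGAP2-AS1 belongs to a gene family with near-identical copies, so its counts are uncertain, and RefSeq places its start outside the window.

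Downward, EIF1B-AS1 had the smallest p at this count. It had 64.4, 64.2, 53.02, 38.1, 40.6 and 65.4 CPM. Both Nutlin3a libraries without peptide were below all DMSO libraries, and the library with both agents was the highest of the 6. The log2 fold change without peptide was -0.70 ± 0.24 (unadjusted p = 0.0095, adjusted p = 0.982), against 0.30 between the single libraries with peptide. EIF1B, a homologue of the start codon selection factor eIF1, begins 8 bases away head to head, and its window held nearly the same reads (log2 fold change -0.72). ATXN2-AS, ATP2B1-AS1, MCPH1-AS1, DEPDC1-AS1 and ABHD11-AS1 followed, with log2 fold changes from -0.66 to -0.59 and unadjusted p from 0.0140 to 0.0252. ATXN2-AS, ATP2B1-AS1 and DEPDC1-AS1 overlap their partners, whose log2 fold changes were -0.55, -0.60 and -0.57. All Nutlin3a libraries, with and without peptide, were below every DMSO library in ATXN2-AS (62.2 to 71.1 against 88.4 to 101 CPM). The same held in ATP2B1-AS1 (64.0 to 81.4 against 85.9 to 113 CPM). In DEPDC1-AS1 the library with both agents had 68.0 CPM, above the 61.6 CPM of DMSO replicate 2. MCPH1-AS1 overlaps AGPAT5, a lipid acyltransferase, at -0.51. ABHD11-AS1 overlapped nothing and had 72.6, 74.5, 60.3, 60.2, 34.1 and 47.6 CPM, with Nutlin3a replicate 1 just under the lowest DMSO library.

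**Figure D3:**
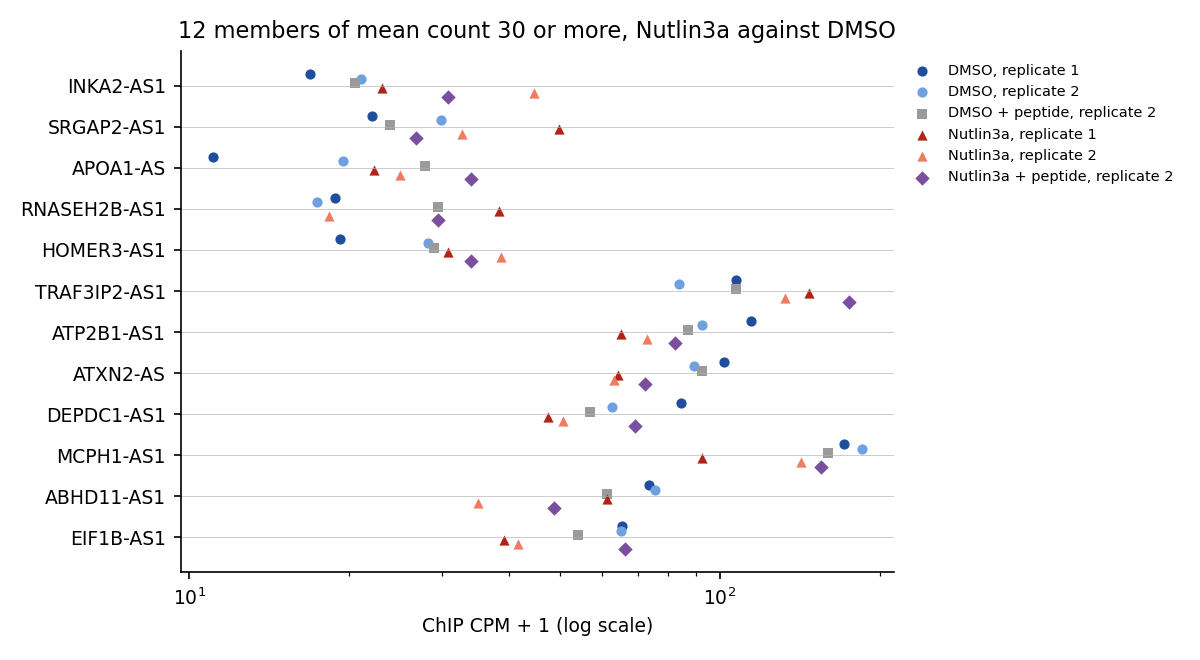
ChIP CPM plus 1 on a log scale (horizontal) in each of the 6 ChIP libraries for the 12 members with the smallest p for Nutlin3a against DMSO, 6 in each direction, of those that reached a mean count of 30, ordered by log2 fold change. TRAF3IP2-AS1 and INKA2-AS1 have all Nutlin3a points right of their DMSO points. ATXN2-AS, ATP2B1-AS1 and ABHD11-AS1 have all of them left, EIF1B-AS1 has only those without peptide left, and none passed the adjusted threshold.

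Members whose partner stood in a list of p53 target genes were read next. Of the 107 genes of the list, which does not hold INKA2, 8 were partners of members, and 7 of these members had enough counts. Their log2 fold changes ran from -0.78 to 2.95 with a median of 0.13, and 0 of 7 reached an unadjusted p under 0.05. LIF-AS1, 7566 bases from the cytokine gene LIF, had 97.1, 118, 88.7, 111, 102 and 123 CPM. Its groups overlapped, and the log2 fold change was -0.01 ± 0.22. ZNF561-AS1, whose window overlaps that of ZNF561, had 31.7 and 38.5 CPM under DMSO and 29.7 and 37.7 CPM under Nutlin3a (log2 fold change -0.05 ± 0.29). The highest value, 2.95 ± 1.74, was that of PRKX-AS1 on 0 to 9.14 CPM. MAST4-AS1 was at 0.68 ± 0.50, STEAP3-AS1 at 0.13 ± 0.49, LRP1-AS at 0.81 ± 0.75 and ASTN2-AS1 at -0.78 ± 1.89. FBXW7-AS1 had 0 CPM in all 3 DMSO libraries and 0.889 to 2.29 CPM in the Nutlin3a libraries, too few counts to test.

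Antisense RNAs with known functions were read whatever their values, as a list of 30. Of them 3 were higher than input (PCBP1-AS1, HIF1A-AS3 and BDNF-AS) and 0 lower among 25 tested. Of all windows tested, 8.55% were higher and 2.62% lower, and with 25 members this count does not set the list apart. For Nutlin3a 0 of 30 passed, with a median log2 fold change of 0.01 and a range of -0.48 to 1.23, and BDNF-AS was the only one of them with an unadjusted p under 0.05 (0.0491). BDNF-AS, which is known to repress the neurotrophin gene BDNF, had 83.1, 85.8, 55.8, 68.6, 53.2 and 71.1 CPM. Without peptide both Nutlin3a libraries were below both DMSO libraries, with peptide the Nutlin3a library was the higher, and the log2 fold change was -0.48 ± 0.23. Its window overlaps that of LIN7C, which had -0.44 ± 0.22, and lies 193604 bases from BDNF, at 25.9 to 50.7 CPM. OIP5-AS1, an abundant RNA known for binding HuR, had 66.8, 68.8, 50.8, 49.5, 48.4 and 64.5 CPM, with the Nutlin3a libraries without peptide lowest by little (-0.47 ± 0.23). CDKN2B-AS1, known as ANRIL and linked to Polycomb silencing of the CDKN2A and CDKN2B locus, had 25.0, 23.1, 35.2, 16.8, 31.7 and 28.0 CPM, with overlapping groups and a log2 fold change of 0.03 ± 0.36. EPB41L4A-AS1, a host of the small nucleolar RNA gene SNORA13, had 103 to 123 CPM in all libraries. Among the others of the list were AFAP1-AS1 at 3.36 to 10.7 CPM, BACE1-AS at 3.08 to 18.3, UCHL1-AS1 at 4.46 to 10.3, DSCAM-AS1 at 2.79 to 9.14 and WT1-AS at 4.33 to 11.1. AFAP1-AS1, BACE1-AS and DSCAM-AS1 were highest in Nutlin3a replicate 1. WT1-AS had too few counts for the test against input, and the other 4 did not pass it.

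The peptide also gave no antisense window past the threshold. Under DMSO 0 members were called in either direction (0% of all windows each way), with 4 higher and 12 lower at an unadjusted p under 0.05 (0.687% and 0.83% of all windows). Under Nutlin3a 0 were called (0% of all windows each way), with 7 higher and 24 lower (0.564% and 1.88% of all windows). When the Nutlin3a response with peptide was set against that without it, 0 were called (0% of all windows each way), with 7 on each side (0.413% and 0.641% of all windows). Each peptide group was a single library, assumed in the fit to vary like the others. DESeq2 and limma-voom called 0 members in each of these comparisons.

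Of members that reached a mean count of 30, EIF1B-AS1 was first upward for the difference of responses, at 1.01 ± 0.40 on the log2 scale (unadjusted p = 0.0237), and UGDH-AS1 and COA6-AS1 followed at 0.96 ± 0.41 and 0.99 ± 0.42. UGDH-AS1 had 120, 85.8, 60.3, 94.5, 76.5 and 96.9 CPM, lowest in DMSO with peptide. That library is shared by the comparison under DMSO, where UGDH-AS1 had a log2 fold change of -0.77 ± 0.30 and PCSK6-AS1 and SRP54-AS1 had -0.87 ± 0.31 and -0.73 ± 0.30. PCSK6-AS1 had 87.5, 82.2, 46.3, 123, 78.3 and 98.3 CPM, again lowest in DMSO with peptide. HOXB-AS3, a noncoding gene of the HOXB cluster, was first upward there at 0.93 ± 0.39, on 21.1 and 33.4 CPM without and 51.9 CPM with peptide. Downward for the difference, VPS13A-AS1, SEC24B-AS1 and FOXP4-AS1 had -1.08, -0.58 and -0.70 with unadjusted p from 0.108 to 0.165. Under Nutlin3a, NR2F1-AS1 was first upward with the peptide at 1.16 ± 0.43, on 13.7 and 15.5 CPM without and 32.9 CPM with it, followed by HAS2-AS1 at 1.32 ± 0.51.

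Under Nutlin3a, at the same minimum of 30 counts, the smallest p downward belonged to GAS5-AS1, MIF-AS1 and DLGAP1-AS2, whose libraries without peptide disagreed. GAS5-AS1, antisense to the snoRNA host gene GAS5, had 158 CPM in DMSO replicate 1 and 192 CPM in Nutlin3a replicate 1, but 27.7, 34.0, 41.2 and 17.3 CPM in the 4 replicate 2 libraries. DLGAP1-AS2 had 65.4 and 152 CPM in the replicate 1 libraries and 1.03, 5.58, 5.38 and 3.11 CPM in the others. MIF-AS1 had 63.4 and 67.8 CPM against 4.62, 13.4, 13.1 and 4.00 CPM. In each, both replicate 1 libraries were high and all replicate 2 libraries low, whatever the treatment. The GAS5-AS1 window overlaps that of the small nucleolar RNA gene SNORD81, so its reads cannot be assigned to GAS5-AS1 alone. Both peptide libraries carry the number 2, so the log2 fold changes for peptide under Nutlin3a set a mean of both replicates against a replicate 2 library: -2.72 ± 0.86 for GAS5-AS1, -4.60 ± 1.68 for DLGAP1-AS2 and -3.29 ± 1.18 for MIF-AS1. Against Nutlin3a replicate 2 alone the log2 ratios were -1.20, -0.62 and -1.48 in the same order.

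A replicate 1 mean at least 3 times the replicate 2 mean was found in 5 of the 537 members that reached a mean count of 20, or 0.931%, and in 126 of 15753 windows, or 0.800%, by a criterion chosen after these values were seen. Besides the 3 above, DLGAP1-AS1 had 85.1 and 99.1 CPM in replicate 1 against 13.4 to 26.3 CPM in the other 4 libraries, and PRC1-AS1 had 23.5 and 24.4 CPM against 3.08 to 7.77 CPM. The DLGAP1-AS2 window held 136 and 200 counts in the replicate 1 libraries and 2 to 10 in the others. Its inputs held 0 counts in 7 libraries and 1 in the other, so this difference did not appear in the inputs of the same number. In MIF-AS1 the replicate 1 inputs held 0 to 5 counts and those of replicate 2 held 0 to 1, and in DLGAP1-AS1 they held 3 to 11 and 3 to 6. For GAS5-AS1 the ChIP counts were 329 and 252 in replicate 1 and 39 to 69 in the others, with at most 6 counts in any input. The host gene GAS5, whose window starts 4744 bases away, had 140 to 243 CPM, highest in the replicate 1 libraries. MIF, a cytokine gene, had 117 to 174 CPM, lowest in Nutlin3a replicate 1. DLGAP1, a scaffold of the synapse 861153 and 851530 bases from its antisense windows, had 1.79 to 5.02 CPM. The labels give no batch, and what separates the numbers was not tested.

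**Figure D4:**
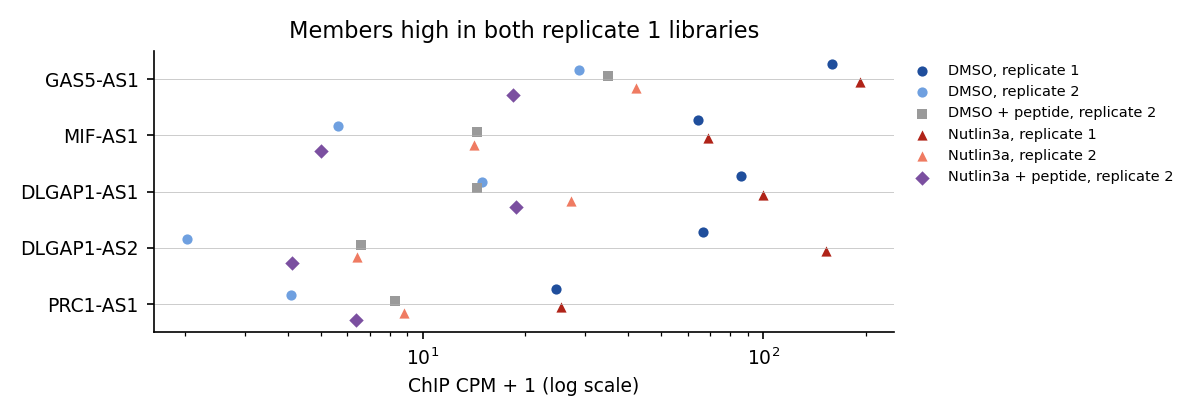
ChIP CPM plus 1 on a log scale (horizontal) in each of the 6 ChIP libraries for the 5 members whose replicate 1 mean was at least 3 times the replicate 2 mean. For each member the dark circle and dark triangle of replicate 1 lie to the right of all 4 replicate 2 points, such as 158 and 192 CPM against 17.3 to 41.2 CPM for GAS5-AS1.

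Levels and Nutlin3a changes of antisense windows were close to those of the partner where the windows shared bases, and less so apart. In the 360 overlapping pairs the median log2 ratio of member to partner was -0.04, the member was higher in all 6 libraries in 50 pairs and lower in all 6 in 108. In the 777 pairs apart the median was -0.70, with 111 and 351. The Nutlin3a log2 fold changes of member and partner had a Pearson r of 0.78 and a Spearman rho of 0.76 across 357 overlapping pairs, which share reads, and 0.10 and 0.11 across 640 pairs apart. Among the 89 pairs apart that reached a mean count of 50 in both, r was 0.23, and among the 32 of these with nothing overlapping either window it was 0.37. All pairs share the same libraries, so these are descriptions across genes, which are not replicates.

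**Figure D5:**
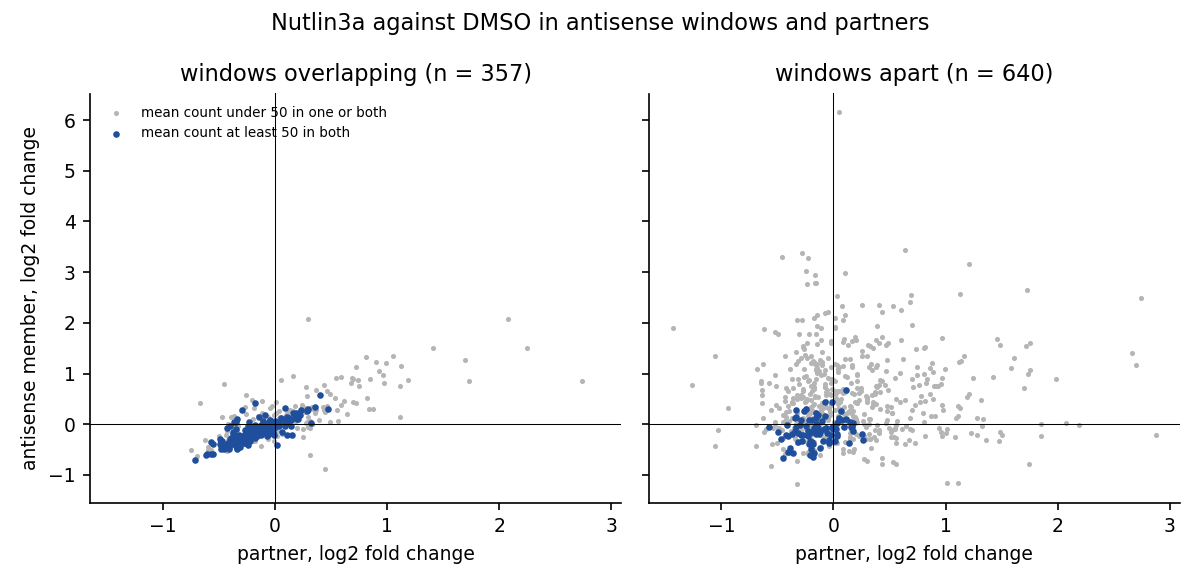
Log2 fold change for Nutlin3a against DMSO without peptide of each antisense window (vertical) against that of its partner (horizontal), for 357 pairs with overlapping windows (left) and 640 pairs apart (right); blue points reach a mean count of 50 in both windows. Points follow the diagonal on the left (r = 0.78) and do not on the right (r = 0.10).

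Of the members that overlapped no other window and reached a mean count of 50, 26 of 65 exceeded the partner in all 6 libraries and 22 lay below it in all 6. The count minimum bears on the member alone and so keeps high members. Among the 32 pairs where both windows reached it and neither overlapped anything, the member was higher in all 6 libraries in 6 and the partner in 14. PAX8-AS1 had a mean of 128 CPM against 10.3 for PAX8, with mean inputs of 57.6 and 12.4 CPM. CRYM-AS1 had 69.0 CPM against 3.44 for CRYM, a thyroid hormone binding protein, but the inputs were 40.9 and 0.764 CPM. ELFN1-AS1, an RNA described in colon tumours, had 83.0 CPM against 1.72 for ELFN1, with inputs of 53.9 and 0.578 CPM. In CRYM and ELFN1 the partner window thus held few reads of any kind, input included. TFAP2A-AS2 had 114 CPM against 53.4 for TFAP2A, and its input was higher as well, at 69.1 against 37.2 CPM. SBF2-AS1 had 90.1 CPM against 62.3 for SBF2, with inputs of 46.0 and 50.5 CPM.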

How the data were processed

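Pol II Ser5 (3E8) ChIP-seq and input libraries of HCT116 cells were analysed from the authors' deposited table of raw read counts per start site window of 1000 bases on hg38, per the submitters' processing notes; aligner and counter are not given in the sources used here. The authors also deposited scaled signal for the 6 ChIP libraries, which equals each library's count times a constant of 0.595 to 1.82, the highest for Nutlin3a replicate 1. It served only as an alternative scaling.

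From the counts, edgeR 4.0.16 (R 4.3.3) gave TMM-scaled CPM and quasi-likelihood tests with Benjamini-Hochberg adjustment over all windows kept by filterByExpr (minimum count 10), threshold 0.05. The ChIP comparisons came from 1 fit of 4 group means over 6 libraries, with 2 residual degrees of freedom, and DMSO ChIP was set against DMSO input, 2 libraries each. Standard errors (SE) of edgeR log2 fold changes were back-calculated, as the absolute change divided by the square root of the quasi-likelihood F statistic. Log2 ratios between single libraries used a prior count of 2. The fit was also run on simulated counts. These were drawn without an effect shared by libraries of the same replicate number, so they do not test that part of the data. Depth limits precision at windows of few counts, above all in inputs.

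The members and lists were chosen with earlier results of these data known. Named members were any past the threshold among ChIP libraries (0), the 6 of smallest p each way for Nutlin3a and 3 each way in the other ChIP comparisons at a mean count of at least 30, the 12 highest and 4 lowest over input, the 6 highest in level, partners in a list of 107 p53 targets, and a list of 30 antisense genes; others are said to be chosen after. Alternatives were DESeq2 1.42.0, limma-voom (limma 3.58.1), other scalings and filters, a replicate block, all 8 inputs and leaving out each replicate. RefSeq gave strands and promoters.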

Additional observations from a re-analysis of the deposited data

How the results depend on the processing

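With few libraries and low input counts, the counts against input moved most. Those among ChIP libraries moved with the replicate block, with the authors' constants or when 1 library was left out. Members higher than input numbered 54 and were 25 under DESeq2, 26 with total counts, 87 without a filter, 2 at a mean count of at least 50, 8 with the replicate block and 11 among windows overlapping no other; leaving out 1 library gave 3 to 206. Members lower than input numbered 16 and were 0, 35, 12, 1, 0 and 7 in that order, 66 with all 8 inputs, and 0 to 116 without 1 library. Over all windows the same settings, in that order, gave 4.28%, 4.57%, 8.57%, 1.94%, 1.92% and 9.60% higher and 0.498%, 4.99%, 1.43%, 2.07%, 0.195% and 2.10% lower, with 13.9% lower at 8 inputs, and leaving out 1 library gave 1.39% to 25.4% and 0.235% to 12.4%. The low ends came without a DMSO ChIP replicate and the high ends without DMSO input replicate 2. From DESeq2 to windows overlapping no other, in the order above, the shares of members tested were 3.24%, 3.37%, 7.62%, 0.769%, 1.04% and 3.16% higher. They were 0%, 4.53%, 1.05%, 0.385%, 0% and 2.01% lower, with 12.9% lower at 8 inputs. Total counts moved the median log2 fold change over input of all windows from 0.07 to -0.28, and the authors' constants moved that for Nutlin3a from 0.04 to 0.53.

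Among ChIP libraries, where 0 members were called, the replicate block gave 1 higher for Nutlin3a (DLGAP1-AS2) and the authors' constants 4 lower for peptide under Nutlin3a (ACTA2-AS1, DLGAP1-AS2, GAS5-AS1 and MIF-AS1). Leaving out 1 library gave 0 to 5 higher and 0 to 2 lower for Nutlin3a, 0 to 3 lower for the difference of responses, 0 to 4 lower for peptide under DMSO and 0 to 6 lower for peptide under Nutlin3a. Over all windows these settings called 39 higher with the block and 55 lower with the authors' constants, and without 1 library 0 to 88 higher and 0 to 15 lower for Nutlin3a, 0 to 34 lower, 0 to 53 lower and 2 to 131 lower in the other comparisons in turn. All of these member calls fell on 7 members: the 4 just named, DLGAP1-AS1, POTEH-AS1 and ATP2C2-AS1. DLGAP1-AS2 and GAS5-AS1 were called higher for Nutlin3a without DMSO replicate 1 and lower without Nutlin3a replicate 1. With the block, 0.0954% of members tested and 0.151% of all windows were called higher for Nutlin3a. With the authors' constants, 0.382% and 0.212% were called lower for peptide under Nutlin3a. The fits without 1 library left a single library in a group, so their counts do not set members apart from all windows. The labels do not tie replicate numbers together. Deviations of DMSO and Nutlin3a libraries of the same number had a correlation of 0.51 over 11461 windows. The 12 members named for Nutlin3a kept their sign in 145 of 145 alternatives. These reuse the libraries by which the 12 were picked, so the kept sign is not separate support. Some values came near 0: RNASEH2B-AS1 had 0.02 without Nutlin3a replicate 1, and ABHD11-AS1 had -0.03 with the authors' constants.

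The median log2 ratio of member to partner in overlapping pairs was -0.021 both at an overlap of at least 500 bases and at a mean count of at least 50. In pairs apart it turned to 0.62 at a member mean count of at least 50, a filter that keeps only high members. The cause of the other changes was not tested.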
